A study of Mus musculus with 4 samples.

Results

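The nuclear rRNA genes of mouse skeletal muscle were compared between isolated mitochondria and the remaining tissue. The members were all genes that the deposited table annotates with the Ensembl biotype rRNA, which gave 111 of 16472 genes. The 2 rRNA genes of the mitochondrial genome have a biotype of their own and were used only for comparison. Genes of identical sequence were summed and treated as 1 measurement, so that the 111 genes gave 71 sequences. Skeletal muscle of wild-type mice had been sequenced as 4 RNA libraries. Isolated mitochondria gave 2 of them, and 2 are labelled as tissue minus mitochondria, called remaining tissue here. The genotype is wild type in all 4, and no strain or age is given in the labels. The titles of the second group and a legend of the study speak of total muscle, while its treatment label names tissue without mitochondria; the label was followed, and the sources differ on whether the comparison is with whole or depleted muscle. The methods describe digitonin and RNase A for mitochondria of heart from which RNA was taken, and a fragmentation time adjusted for mitochondrial samples; any effect of such steps coincides with the groups and cannot be told apart from them. Nothing in the labels says that the libraries came from separate animals, so p-values measure only the spread between these samples.

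Cytoplasmic ribosomes hold 4 rRNAs. The 18S rRNA belongs to the small subunit, and the 5S, 5.8S and 28S rRNAs to the large one. RNA polymerase I transcribes 18S, 5.8S and 28S as a single precursor, whereas RNA polymerase III transcribes 5S from separate tandem genes, and 5S enters the ribosome in a particle with the proteins RPL5 and RPL11. Mitochondrial ribosomes carry rRNAs of the mitochondrial genome, and mammalian 5S rRNA has been described in preparations of mitochondria in published work.

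Of the 111 genes, 51 lay in a tandem array of 5S genes on the minus strand of chromosome 8 (GRCm38, chr8:123538786-123623745). Every one of the 51 genes annotated there was in the table. Neighbouring genes of the array were spaced by 1665 to 1727 nt (median 1698 nt), and the array lay within an intron of Gm20388, which is on the opposite strand. A further 57 genes were 5S-like copies dispersed over 20 chromosomes, with 4 to 43 differences (median 21) from the common 5S sequence. Of these, 30 lay between annotated genes, 12 within a gene on the same strand and 15 within a gene on the opposite strand. The remaining members were 2 genes of the 5.8S family, n-R5-8s1 (148 nt) and Gm24601 (143 nt, 41 differences from n-R5-8s1), and 1 gene of 1849 nt on chromosome 17, CT010467.1 (chr17:39846353-39848201). RefSeq lists the 18S pseudogene Rn18s-rs5 over the same stretch of GRCm38, and its strand differs between the deposited table and GENCODE. A 28S gene was not analysed here.

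The 5S array held 11 distinct sequences. The common sequence was shared by 32 genes, Rn5s (chr8:123598158-123598276) and 31 others, and is called the common 5S sequence. Positions are counted from 1 at its 5′ end. n-R5s125 (3 genes), n-R5s136 (1 gene) and n-R5s118 (4 genes) differ from it by a single base, at positions 44, 33 and 62. Gm23647 (2 genes) lacks the 10 bases from position 26 to 35. n-R5s109 (1 gene) differs at positions 39, 44 and 99, and n-R5s115 (1 gene) at positions 3 and 86. The other 4 share changes at positions 89, 90 and 93. n-R5s102 (1 gene) has no further change, n-R5s129 (2 genes) is also changed at position 2, and n-R5s114 (3 genes) at positions 1 and 2. n-R5s127 (1 gene) has the changes of n-R5s114 and in addition differs at positions 34, 35 and 36.

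The values are normalized counts, that is, read counts per gene divided by a size factor of the library and rounded by the authors. On this scale 1 read is worth 9.049 normalized counts in isolated mitochondria replicate 1 and 5.059 in replicate 2. In remaining tissue it is worth an estimated 0.142, with the same factor assumed for both libraries. Isolated mitochondria held 42749263 and 35306106 assigned reads, of which 100924 and 181152 were of nuclear genes, against an estimated 11988495 and 11967537 in remaining tissue. These counts, called nuclear reads, leave out 17 nuclear genes that are copies of mitochondrial DNA by sequence similarity. The copies held 95% and 91.3% of the reads on all genes outside the mitochondrial genome in isolated mitochondria, and 1.73% and 1.57% in remaining tissue. The 7 muscle markers summed to 506585 and 488731 normalized counts in remaining tissue and to 60194 and 52750 in isolated mitochondria. The 3 liver markers (Alb, Apoa1, Apoa2) summed to 215 and 36 in remaining tissue and to 9465 and 1988 in isolated mitochondria, and the heart marker Myh6 stood at 196 and 334 against 525 and 1543. In both, the values of isolated mitochondria lay above those of remaining tissue, and their part in the results below was not tested. The 3 blood markers (91 and 96 against 45 and 25) and the 2 fat markers (19 and 76 against 45 and 50) were low in both groups. In bulk samples, fewer cells of a type and less RNA per cell cannot be told apart.

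The summed level of the nuclear rRNA genes was near equal in both groups on the scale of normalized counts, far lower in isolated mitochondria as a share of all reads, lower as a share of reads on all genes outside the mitochondrial genome, and higher only once the nuclear copies of mitochondrial DNA are left out of that total. In normalized counts the sum was 84602 and 103436 in remaining tissue and 107859 and 88005 in isolated mitochondria. The 2 groups overlapped, with means of 94020 ± 13320 and 97930 ± 14040 (SD, n = 2 each) and a log2 difference of 0.06. As a share of all assigned reads, nuclear rRNA took 3.80% and 4.77% in remaining tissue. In isolated mitochondria it took 0.0279% (95% Wilson interval 0.0274 to 0.0284, 11920 reads) and 0.0493% (0.0486 to 0.05, 17396 reads), so that the mean share was 111-fold lower. Most of the reads of isolated mitochondria were those of mitochondrial rRNA, which made up 81.7% and 77.1% of them against 17.8% and 16.3% in remaining tissue.

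Of the reads on all genes outside the mitochondrial genome, copies included, nuclear rRNA was 4.89% and 5.997% in remaining tissue and 0.59% and 0.837% in isolated mitochondria, a 7.63-fold lower mean. Without the copies the order turned. Nuclear rRNA was then 4.97% and 6.09% of nuclear reads in remaining tissue, and 11.8% (11.6 to 12.01) and 9.6% (9.47 to 9.74) in isolated mitochondria. The groups did not overlap, and the means of 5.53% ± 0.79 and 10.7% ± 1.56 (SD, n = 2 each) differed 1.94-fold. With 2 libraries a group, an exact permutation test cannot pass 0.05, and no test was made of a sum over the members.

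**Figure D1:**
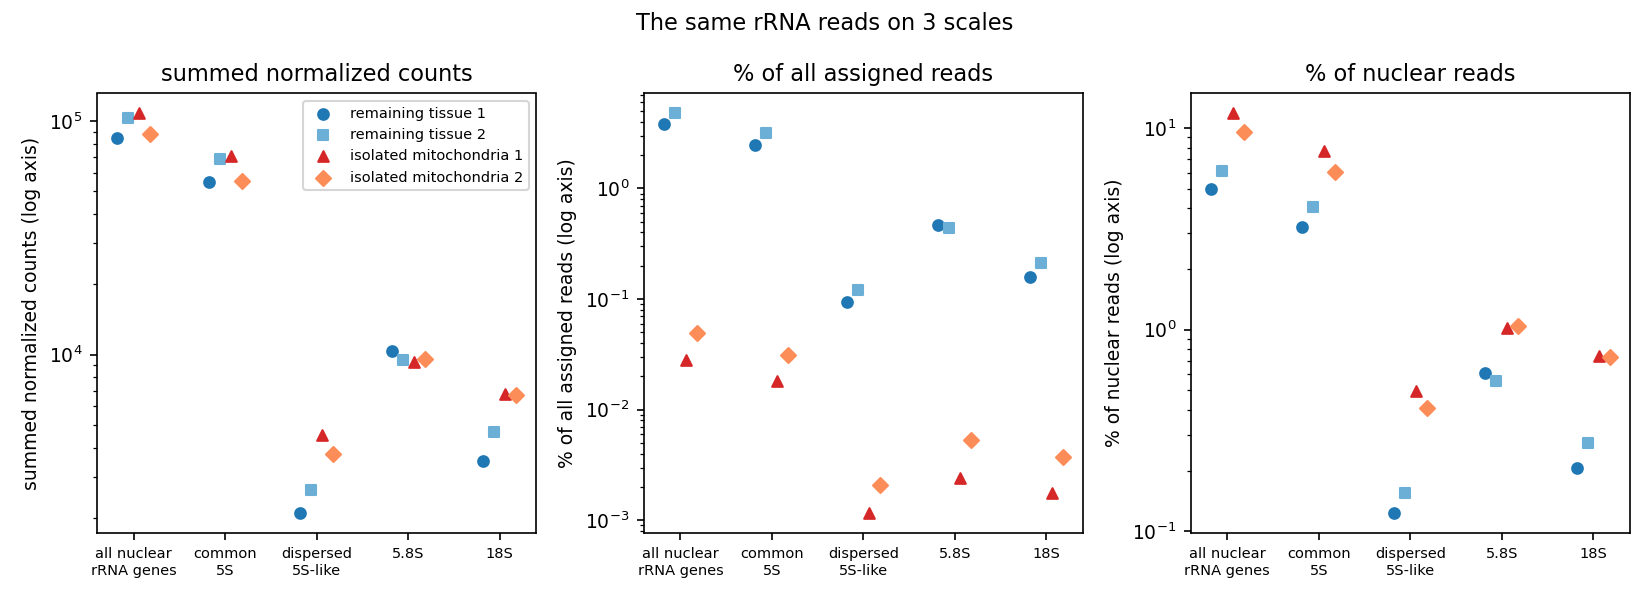
Values of the nuclear rRNA classes in each library on 3 scales, all with log axes: summed normalized counts (left), percent of all assigned reads (middle) and percent of nuclear reads (right). Each point is 1 library. For all nuclear rRNA genes the 4 libraries lie between 84602 and 107859 normalized counts, while the libraries of isolated mitochondria lie at 0.0279% and 0.0493% of assigned reads, below those of remaining tissue at 3.80% and 4.77%, and above them as a share of nuclear reads without the copies of mitochondrial DNA.

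The common 5S sequence carried most of this level. Its 32 genes summed to 54962 and 69042 normalized counts in remaining tissue and to 70609 and 55617 in isolated mitochondria. The groups overlapped, the log2 difference was 0.02 (SE 0.26), and limma gave an adjusted p of 0.953. As a share of nuclear reads the common sequence had a mean of 3.65% ± 0.59 in remaining tissue and of 6.9% ± 1.18 in isolated mitochondria (SD, n = 2 each), 1.89-fold more, with no test. The 5.8S gene n-R5-8s1 stood at 10358 and 9365 normalized counts in remaining tissue and at 9293 and 9572 in isolated mitochondria, a log2 difference of -0.06 (SE 0.17, limma adjusted p = 0.802). The difference of n-R5-8s1 was above 0 when libraries were scaled by nuclear genes without copies or the upper quartile and in the count models, and far below 0 when the copies were included (-3.07). The 18S gene CT010467.1 stood at 3497 and 4641 against 6778 and 6734 normalized counts. Both libraries of isolated mitochondria were above both of remaining tissue, but the log2 difference of 0.75 (SE 0.21) missed the threshold in limma (adjusted p = 0.0855). The count models edgeR and DESeq2 called CT010467.1 higher in isolated mitochondria.

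Levels per length are given side by side. The summed common 5S sequence held 46190 and 58020 normalized counts per 100 nt in remaining tissue and 59340 and 46740 in isolated mitochondria. The 5.8S gene n-R5-8s1 held 6279 to 6999 normalized counts per 100 nt over the 4 libraries. The 18S gene CT010467.1 held 189 and 251 per 100 nt in remaining tissue and 367 and 364 in isolated mitochondria. CT010467.1 is a single gene that overlaps exons of Gm42418 and AY036118, and reads that overlap several genes are stated to have been left out, so its level is not comparable with the sum of 32 5S genes. The methods name a SMARTer stranded total RNA kit for pico input, and do not say whether rRNA was removed during library preparation. Levels of different rRNAs, mitochondrial ones included, therefore need not reflect those in the samples. The 2 rRNAs of the mitochondrial genome stood apart from all nuclear rRNAs in the comparison. mt-Rnr1, the rRNA of the small mitochondrial subunit, had 132672 and 125961 normalized counts in remaining tissue and 117278362 and 45687083 in isolated mitochondria, a log2 difference of 9.15 (SE 0.68, limma adjusted p = 0.00921). mt-Rnr2, that of the large subunit, differed by 9.11 (SE 0.70, adjusted p = 0.00968).

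Of the 71 sequences, 30 had a mean of at least 20 normalized counts over the 4 libraries and were tested: all 11 of the array, 16 of the 57 dispersed, both 5.8S and the 18S. Of these, 8 were higher in isolated mitochondria at an adjusted p under 0.05 in limma (26.7% of the 30, against 7.32% of all 6876 genes and sequences tested), and 0 were lower (against 9.39%). At an unadjusted p under 0.05 limma gave 11 higher and 3 lower; edgeR called 11 higher and 0 lower, and DESeq2 called 13 higher and 1 lower. Both libraries of isolated mitochondria were above both of remaining tissue for 14 of the 30 sequences (46.7%, against 25.6% of all genes tested) and below them for 7 (23.3%, against 43.9%). The median log2 difference was 0.31 over the 30 sequences and -0.45 over all genes tested. The sequences tested include 3 that reached the limit only through isolated mitochondria; their mean in remaining tissue was under 20 (n-R5s161, n-R5s127 and Gm23806). The direction depends on the scale: with libraries scaled to the total of all genes, all 30 sequences were lower in isolated mitochondria.

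**Figure D2:**
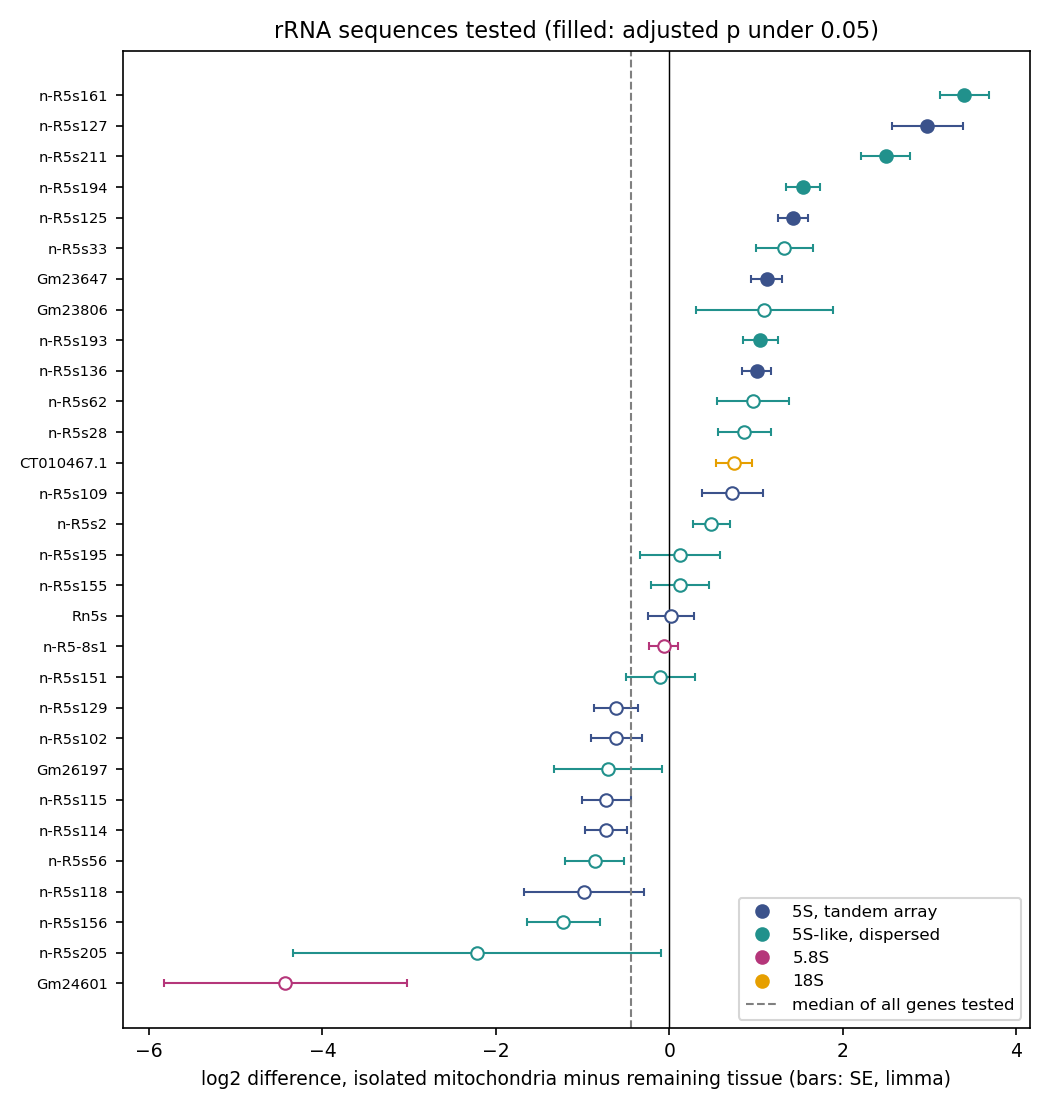
Log2 difference of each of the 30 rRNA sequences tested, isolated mitochondria minus remaining tissue in normalized counts, with bars of 1 SE from limma; filled points have an adjusted p under 0.05. The 8 filled points lie between 1.01 and 3.40, the common 5S sequence (Rn5s) lies at 0.02, and the dashed line marks the median of all genes tested, -0.45; scaled to the total of all genes, all 30 points would lie below 0.

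Within the array, 4 of the 11 sequences were higher in isolated mitochondria (against 7.32% of all genes tested): n-R5s127, n-R5s125, Gm23647 and n-R5s136. Of these, n-R5s127 reached the limit for a test only through isolated mitochondria. The 3 genes of n-R5s125, a single base away from the common sequence, summed to 1128 and 1167 normalized counts in remaining tissue and to 3365 and 2838 in isolated mitochondria. The difference was 2.69-fold (log2 1.43, SE 0.17, limma adjusted p = 0.0201). n-R5s136, also a single base away, stood at 466 and 509 against 941 and 1022 normalized counts, 2.01-fold (adjusted p = 0.0327 in limma). In both, the 2 libraries of a group lay close together and the groups were well apart. Without remaining tissue replicate 1 or 2, limma no longer called n-R5s125 (adjusted p = 0.0683 and 0.056) or n-R5s136 (0.386 and 0.289), with log2 differences of 1.40 and 1.45 and of 0.94 and 1.07.

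The 2 shorter genes of Gm23647 summed to 924 and 1028 normalized counts in remaining tissue and to 2298 and 1968 in isolated mitochondria, 2.18-fold (limma adjusted p = 0.0296). Without remaining tissue replicate 1 or 2 this call was lost too (adjusted p = 0.259 and 0.167 in limma), at log2 differences of 1.05 and 1.20. The shift was largest in n-R5s127, which has 8 substitutions, at 11 and 21 against 118 and 137 normalized counts (log2 2.98, SE 0.41, limma adjusted p = 0.0234). Its values in isolated mitochondria rest on 13 and 27 reads, and its call was lost without remaining tissue replicate 1 (adjusted p = 0.0542 in limma) and without either library of isolated mitochondria (0.0624 and 0.0661). n-R5s109 stood at 46 and 52 against 63 and 106 normalized counts, which did not pass the test in limma (log2 0.73, SE 0.35, adjusted p = 0.215). It was called higher by edgeR (adjusted p = 0.0471), by DESeq2 (0.00746) and by limma without isolated mitochondria replicate 1 (0.032).

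The other 5 sequences of the array had negative differences, and none passed the limma test in normalized counts with all 4 libraries and no replicate block. With the block only n-R5s118 did. Scaled to the total of all genes, limma called all 5 lower. n-R5s114 summed to 3276 and 4426 normalized counts in remaining tissue and to 2579 and 2044 in isolated mitochondria (log2 -0.73, SE 0.24, limma adjusted p = 0.115). n-R5s115 stood at 2571 and 3489 against 2181 and 1508. n-R5s102 and n-R5s129, which share 3 substitutions, both had a log2 difference of -0.61. In these 4 of the 11 sequences of the array both libraries of isolated mitochondria lay below both of remaining tissue (against 43.9% of all genes tested). Their differences were above 0, between 0.17 and 0.28, when libraries were scaled to nuclear genes without copies, and between -3.73 and -3.61 when the copies were included. n-R5s118 differed between its own replicates, with 2153 and 577 normalized counts in isolated mitochondria against 1909 and 2544 in remaining tissue. Its log2 difference of -0.98 (SE 0.69) was -0.03 without isolated mitochondria replicate 2 and -1.93 without replicate 1, in which last case limma called it lower (adjusted p = 0.0442), as it did with a replicate block (0.0431).

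**Figure D3:**
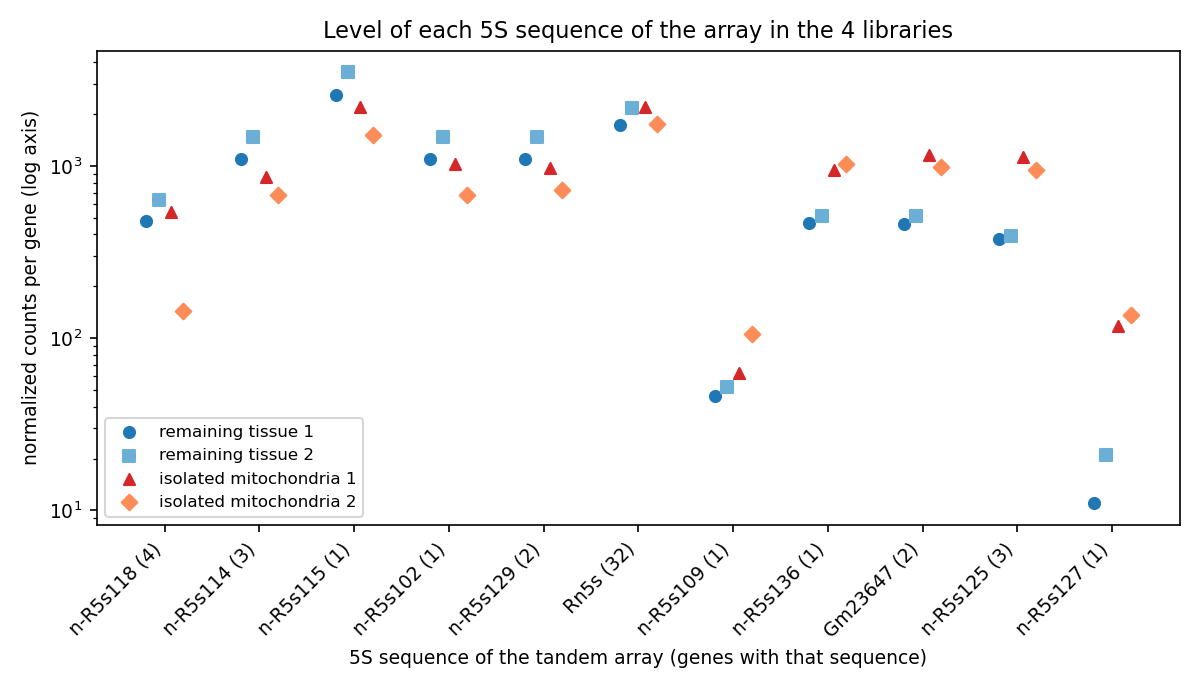
Normalized counts per gene (log axis) of the 11 sequences of the 5S array in the 4 libraries, ordered by their difference between groups, with the number of genes that share each sequence in brackets. On this scale the points of isolated mitochondria lie above those of remaining tissue for the 5 sequences on the right, overlap for the common sequence (Rn5s, 32 genes) and n-R5s118, and lie below for n-R5s114, n-R5s115, n-R5s102 and n-R5s129.

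In normalized counts, the place of the changed bases went with the sign of the difference within the array. The pattern was seen, and its limits of positions 28 and 44 were set, only after the values were known. It is given with no test. All 5 sequences with a change between positions 28 and 44 had positive log2 differences (0.73 to 2.98, median 1.12). All 5 whose changes lay elsewhere had negative ones (-0.98 to -0.61, median -0.72). The split by sign did not hold on other scales. Scaled to nuclear genes without copies, n-R5s102, n-R5s114, n-R5s115 and n-R5s129 lay between 0.17 and 0.28, and n-R5s118 at -0.09. Scaled to the total of all genes, all 10 lay below 0. n-R5s127 is among the first 5 only through isolated mitochondria, and 3 of the other 5 (n-R5s102, n-R5s114 and n-R5s129) have at most 1 window of read length of their own, so that the split rests on fewer separate sequences than 10. The dispersed copies did not show this split. Of the 12 tested dispersed sequences with a change in that window, 8 had positive and 4 negative differences, and of the 4 without one, 3 were positive and 1 negative.

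How well reads can tell the sequences apart differed between them. Reads were 75 nt long, and a window of that length was looked up in all annotated rRNA transcripts. For the common 5S sequence, 17 of 45 windows occurred in no other sequence. All 45 windows of n-R5s118 and n-R5s109, 44 of n-R5s125, 36 of n-R5s127, 37 of n-R5s115, 33 of n-R5s136 and 25 of the 35 windows of Gm23647 were their own. By contrast n-R5s102 had 0 such windows, and n-R5s114 and n-R5s129 had 1 each. With windows of 30 nt the common sequence had 0 of 90. The values of n-R5s102, n-R5s114 and n-R5s129 therefore can hardly be told apart from each other by sequence alone. Each differs from the common sequence at positions 89, 90 and 93, so only reads over these positions or their other changes tell it from that sequence. All values of the array depend on how reads with several best places were counted. The look-up of windows was exact, whereas the study allowed mismatches in its alignment. n-R5s125, n-R5s136 and n-R5s118, a single base from the common sequence, had levels far below its sum. How many of their reads came from the common sequence with an error at that base was not tested.

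The 32 genes of the common sequence are identical over their length, yet each held reads of its own. In remaining tissue they ranged from 1456 to 3475 normalized counts (median 1653) in replicate 1 and from 1770 to 4425 (median 2094) in replicate 2. In isolated mitochondria they ranged from 1882 to 3909 (median 2122) and from 1462 to 3056 (median 1685). The highest was Gm25018 (chr8:123565969-123566087) and the second Rn5s in all 4 libraries. Without these 2, the variance of the 30 other genes was 1.47 and 1.66 times their mean in reads in isolated mitochondria. That is near the value of 1 of counting noise. In remaining tissue, with its far deeper nuclear reads, it was 16.6 and 29.2 times the mean in estimated reads.

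Other shared sequences were uneven or even in their own way. The 3 genes of n-R5s125 differed up to 2.87-fold from each other in remaining tissue replicate 1 and up to 2.61-fold in isolated mitochondria replicate 2. The 3 of n-R5s114 differed by at most 1.24-fold in any library. The methods state that reads with several places in the genome were left out, yet every identical gene held reads. How these reads were placed is not given in the sources used here, so the split among identical genes is uncertain and only their sum was used.

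**Figure D4:**
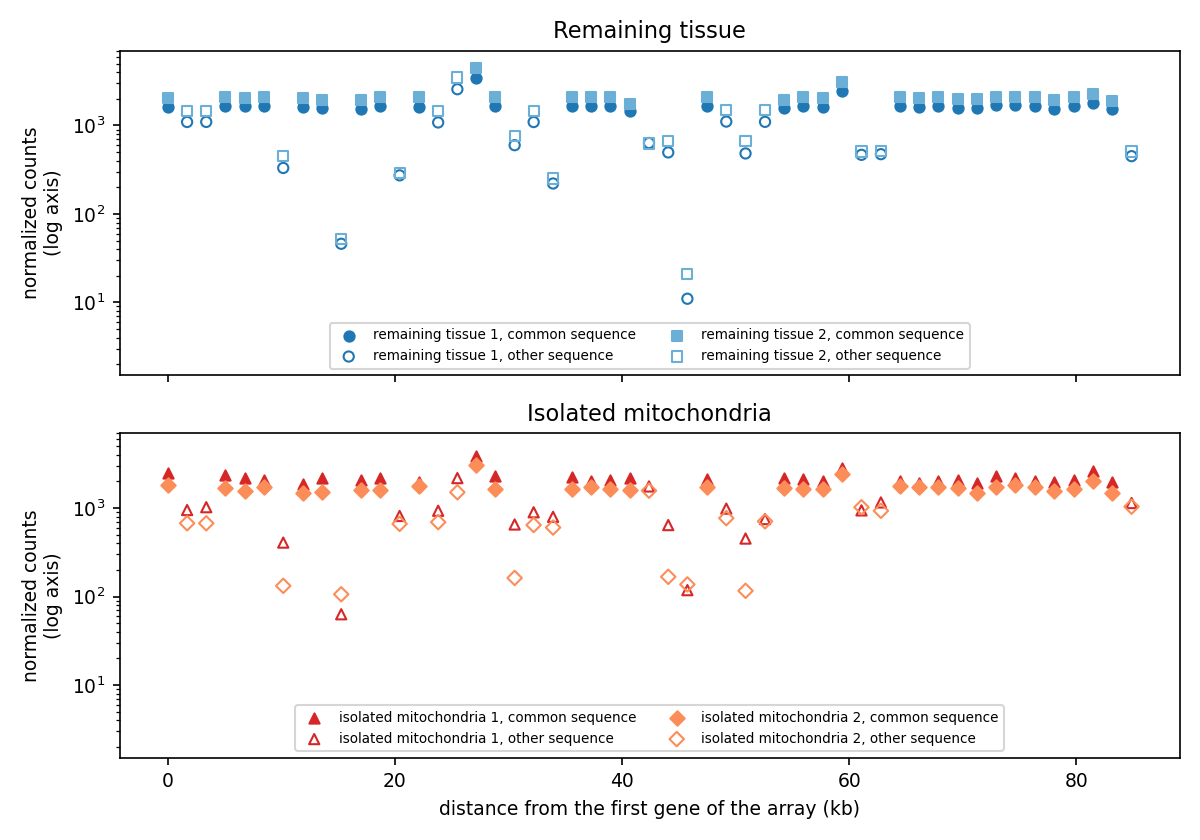
Normalized counts (log axis) of the 51 genes of the 5S array by their distance from the first gene in kb, in remaining tissue (top) and isolated mitochondria (bottom); filled points share the common sequence, open points have another one. The filled points form a level band in all 4 libraries, with Gm25018 as the highest (3475 and 4425 above, 3909 and 3056 below) and Rn5s as the second.

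The 57 dispersed 5S-like copies summed to 2101 and 2636 normalized counts in remaining tissue and to 4522 and 3757 in isolated mitochondria. The groups did not overlap, and the means of 2368 ± 378 and 4140 ± 541 (SD, n = 2 each) differed by 0.81 on the log2 scale. Most of the sum came from a few members. Of the 57, 41 were under the limit for a test, with at most 25 normalized counts in a library of remaining tissue and 27 in one of isolated mitochondria, and 21 of these 41 were at 0 in both libraries of isolated mitochondria. Of the 16 tested, 4 were higher in isolated mitochondria in limma (against 7.32% of all genes tested) and 12 did not pass.

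n-R5s194 was the most abundant of the dispersed copies in isolated mitochondria. It differs from the common sequence at 5 positions and lies between annotated genes (chr3:4338998-4339116). It held 572 and 609 normalized counts in remaining tissue, against 1945 and 1533 in isolated mitochondria, 2.92-fold more (log2 1.55, SE 0.20, limma adjusted p = 0.0216). n-R5s161 (chr6:30379101-30379214), within an intron of Zc3hc1 on the opposite strand, had the largest fold of all 30, from 17 and 21 to 235 and 187 normalized counts (10.6-fold, log2 3.40, SE 0.28, limma adjusted p = 0.0111). It is 1 of the 3 that reached the limit only through isolated mitochondria. The calls of n-R5s194 and n-R5s161 were kept without any 1 of the 4 libraries.

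n-R5s211 (chr1:46374197-46374315), between annotated genes, rose from 21 and 27 to 127 and 152 normalized counts (5.64-fold, limma adjusted p = 0.0186), a call lost without remaining tissue replicate 1 (adjusted p = 0.0728). n-R5s193 (chr4:149817732-149817840) follows the common sequence over its first 88 bases and departs from it after that, and it overlaps an exon of Gm47301 on the same strand. It rose from 134 and 140 to 262 and 309 normalized counts (2.07-fold, limma adjusted p = 0.0425), and the call was lost without remaining tissue replicate 1 or 2 (adjusted p = 0.483 and 0.435). For n-R5s193, 19 of its 35 windows of 75 nt were its own, while every window of the other 3 was. With windows of 30 nt, 36 of 90 were its own for n-R5s194 and 19 of 80 for n-R5s193. For n-R5s161 it was 74 of 85, and for n-R5s211 90 of 90. All 4 were lower in isolated mitochondria when libraries were scaled to the total of all genes.

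The other 12 dispersed copies tested, near to or far from the common sequence, did not pass in limma. n-R5s2, with 4 substitutions, held 624 and 720 normalized counts in remaining tissue and 1068 and 825 in isolated mitochondria (limma adjusted p = 0.184). n-R5s33, also with 4, stood at 52 and 60 against 181 and 111 (adjusted p = 0.0691 in limma) and was called higher by edgeR and DESeq2. On the other side n-R5s56 stood at 162 and 282 against 109 and 126, and n-R5s156 at 75 and 103 against 27 and 51. The other 7 tested (n-R5s62, n-R5s28, n-R5s195, n-R5s155, n-R5s151, Gm26197 and Gm23806) held 11 to 120 normalized counts in remaining tissue and 15 to 127 in isolated mitochondria. n-R5s205 had 30 and 39 normalized counts in remaining tissue and 0 and 56 in isolated mitochondria. The short 5.8S-like gene Gm24601 stood at 52 and 95 against 0 and 10 normalized counts (limma adjusted p = 0.105), and the count of 10 is 2 reads.

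In both groups, 5S genes with more differences from the common sequence had lower medians. The 32 identical genes had a median of 1874 normalized counts in remaining tissue, against 1890 in isolated mitochondria. For the 20 genes with 1 to 5 differences, 16 of them in the array, the medians were 610 and 754. The 16 genes with 6 to 12 differences had medians of 12.2 and 14.5, and the 9 with 15 to 20 differences of 4.5 and 5. For the 31 genes with more than 20 differences they were 4 and 0, and 16 of these genes were at 0 in both libraries of isolated mitochondria. A count of 0 there allows up to 3 reads, or 27.1 and 15.2 normalized counts, more than the median of this class in remaining tissue, so that an absence of these genes from isolated mitochondria was not detectable at this depth.

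**Figure D5:**
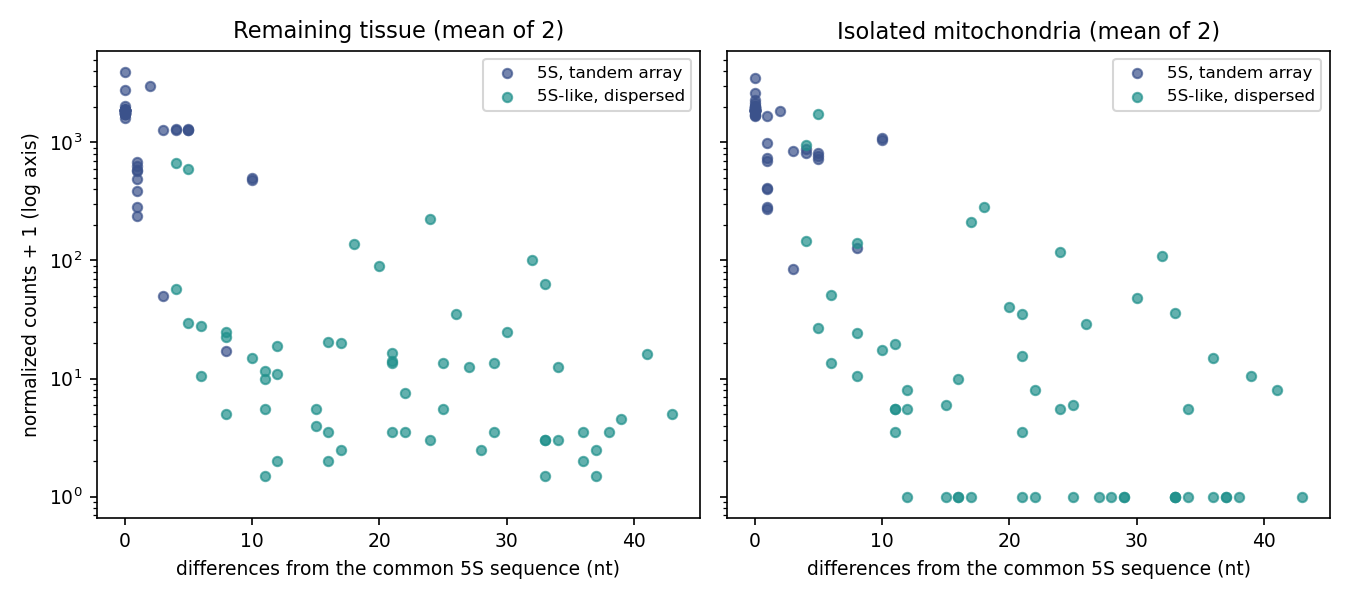
Mean normalized counts plus 1 (log axis) of the 108 5S genes by their number of differences from the common 5S sequence, in remaining tissue (left) and isolated mitochondria (right); each point is 1 gene. The genes of the array lie at 0 to 10 differences and mostly at the top, and the dispersed copies with over 20 differences lie mostly at the bottom, with 16 of 31 at 0 in both libraries of isolated mitochondria.

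The RNAs of genes for proteins that bind, transcribe or process rRNA had mostly low counts and few tests. Of the 9 names listed for the 5S particle and its assembly, 8 had a row, 5 were tested, and 0 passed in either direction (median log2 0.78, against -0.45 over all genes). Of all genes tested, 7.32% were higher and 9.39% lower, so a count of 0 among so few tests tells little. Rpl5, which binds 5S rRNA, had 233 and 211 normalized counts in remaining tissue and 380 and 460 in isolated mitochondria (limma adjusted p = 0.0548). Rpl11, its partner, had 58 and 54 against 81 and 116 (adjusted p = 0.139 in limma). In Rpl5 and Rpl11 both libraries of isolated mitochondria lay above both of remaining tissue, as in 25.6% of all genes tested.

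Of 21 genes of RNA polymerase III and its factors, 9 were tested and 0 passed (median log2 -0.48). For this count and those that follow, the shares of all genes tested were again 7.32% higher and 9.39% lower. Polr3a and Polr3b, the largest subunits, had 19 to 23 normalized counts in remaining tissue, against 0 in isolated mitochondria, where 3 reads are 27.1 and 15.2 normalized counts. Of 19 genes of RNA polymerase I and rRNA processing, 11 were tested and 0 passed (median -0.35); Polr1a, the largest subunit, stood at 108 and 88 against 18 and 56, and Polr1b at 17 and 14 against 0 and 0. Of 3 genes named in published work on 5S transfer to mitochondria, 2 were tested and 0 passed (median -0.10). Tst, a sulfurtransferase, had 11 and 14 normalized counts in remaining tissue and 27 and 10 in isolated mitochondria, and Mrpl18, a mitochondrial ribosomal protein, 71 and 72 against 90 and 46.

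Among 8 other noncoding RNAs of RNA polymerase III, 7 were tested, 2 were higher in isolated mitochondria and 0 lower (against 7.32% and 9.39% of all genes tested; median 0.69). Vaultrc5, the RNA of the vault particle, stood at 716 and 702 normalized counts in remaining tissue and at 4307 and 3784 in isolated mitochondria (log2 2.51, SE 0.16, limma adjusted p = 0.00772). Bc1, a small cytoplasmic RNA, was at 8 and 7 against 54 and 40, which are 6 and 8 reads (adjusted p = 0.0461 in limma), and it reached the limit for a test only through isolated mitochondria. Rn7s1, an RNA of the signal recognition particle, stood at 2370 and 2813 against 4407 and 3906 (limma adjusted p = 0.0791). Rn7sk, which binds a regulator of RNA polymerase II, stood at 4009 and 3856 against 3221 and 1988 (adjusted p = 0.19 in limma). The common 5S sequence, at a log2 difference of 0.02, lay between Rn7s1 (0.68) and Rn7sk (-0.64); no difference between these RNAs was tested. The 2 nuclear RNAs Malat1 and Neat1 summed to 11596 and 10380 normalized counts in remaining tissue against 3628 and 1311.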

How the data were processed

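Total RNA of isolated mitochondria (2 libraries) and remaining tissue (2) of wild-type mouse muscle was sequenced with a stranded low-input kit. The methods do not mention removal of rRNA. Groups come from the labels. According to the submitters' processing notes, the authors used Trimmomatic 0.39 for trimming, STAR 2.7.10a for alignment to GRCm38, featureCounts 2.0.2 for exonic reads and DESeq2 1.30.1 for normalization; the methods of the study give other versions of some of these tools. The deposited values are a signal: counts divided by a size factor and rounded by the authors, with 1 read worth 9.049 and 5.059 units in isolated mitochondria (99.95% and 99.97% of low values were whole reads). In remaining tissue reads were estimated at 7.05 per unit, with the same factor assumed for both libraries. The read totals of remaining tissue and the count models rest on this estimate.

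Identical rRNA genes were summed. limma 3.58.1 was run on log2(normalized count + 1) over rows with a mean of at least 20, two-sided, with Benjamini-Hochberg adjustment over 6876 rows and a threshold of 0.05. Log2 differences are on the log2(value + 1) scale and understate the change of low genes that have no library at 0. Where a library was at 0, the difference can exceed that between group means. For n-R5s205 the means were 34.5 in remaining tissue and 28 in isolated mitochondria, at a log2 difference of -2.22. On simulated data for this comparison limma recovered 60.5% of 200 changed genes among 6483. edgeR 4.0.16 and DESeq2 1.42.0 on reads were alternatives, with other scalings, filters, pseudocounts, a replicate block and single libraries left out. Sequences were GENCODE M21 transcripts, all 111 matched, aligned with Biopython 1.88. The sequences themselves are not reported here. Intervals (95% Wilson) and the floor of 3 reads cover counting error only. Named were the rRNA sequences tested, with the other 41 given by counts and ranges, mt-Rnr1 and mt-Rnr2, and of each gene list the first 2 genes and up to 3 called in each direction; Malat1, Neat1 and the marker sums are given as marker lists. Members and lists were chosen with earlier results of these data known. Schwann markers summed to at most 43 normalized counts, and no brain marker had a row.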

Additional observations from a re-analysis of the deposited data

How the results depend on the processing

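The 8 calls depend on the scale. With the sum of every gene as the scale, or that of genes outside the mitochondrial genome (median of all genes -7.35 and -3.45), 0 sequences were higher and 30 and 26 lower; the summed level was then -6.84 and -2.95 on the log2 scale. Scaled to nuclear genes without copies, 14 were higher and the summed level was 0.95. DESeq2 on reads gave 13 higher and 1 lower, no filter 15 lower (all among the 41 low sequences), and a pseudocount of 10 gave 1 lower. Leaving out single libraries gave 2 to 10 higher (2 without remaining tissue replicate 1, 4 without its replicate 2) and 0 to 2 lower, and a summed level of -0.09 to 0.21; the lone library left in an arm was assumed to vary like the others. Upper-quartile scaling, a pseudocount of 5, a mean of at least 5 and edgeR gave 8, 8, 7 and 11 higher. Not summing identical genes gave 11 higher genes, and averaging them, chosen after seeing the data, gave 8.

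Signs turned as follows. On the sum of every gene, the log2 differences were -3.92 for n-R5s127, -5.47 for n-R5s125, -5.78 for Gm23647, -5.89 for n-R5s136, -6.17 for n-R5s109, -6.88 for Rn5s, -3.50 for n-R5s161, -4.41 for n-R5s211, -5.35 for n-R5s194, -5.85 for n-R5s193 and -6.16 for CT010467.1. On the sum of genes outside the mitochondrial genome, they were -0.024 for n-R5s127, -1.58 for n-R5s125, -1.88 for Gm23647, -1.996 for n-R5s136, -2.27 for n-R5s109, -2.98 for Rn5s, -0.51 for n-R5s211, -1.46 for n-R5s194, -1.95 for n-R5s193 and -2.26 for CT010467.1. Scaled to nuclear genes without copies, they were 0.28 for n-R5s129 and n-R5s102, 0.17 for n-R5s115 and n-R5s114, and 0.83 for n-R5-8s1. n-R5-8s1 was at 0.19 with the upper quartile, 0.18 in edgeR and 0.24 in DESeq2, and between -0.14 and 0.010 without single libraries; Rn5s was then between -0.15 and 0.20. Rescaling shifts all differences alike by construction; the cause of the other turns was not tested. The replicate numbers are not stated to pair the libraries. Deviations of same-numbered libraries from their group means correlated at 0.145 over all genes tested. With 2 libraries a group the 2 pairs mirror each other, so they count as a single comparison. With the replicate block 9 sequences were higher and 2 lower.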
